A study of Homo sapiens with 2 samples.

Results

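Weak promoter peaks from an NRF-1 immunoprecipitation that were called in both conditions are described here. They were selected on the siControl list as peaks on chromosomes 1 to 22 and X with a −log10 q under 5 that overlapped a siAATF peak by at least 1 base and touched a promoter window, here the 1 kb up and downstream of any protein-coding transcript start. The −log10 q is the peak caller's significance, adjusted for many tests, of a peak against the local background of its own library. It is not the height of the peak over that background, which is given by the fold enrichment. By this rule there were 1795 weak shared promoter peaks, of 17850 siControl peaks on these chromosomes and of 36468 peaks in both lists together. Of the 5711 siControl peaks under 5, 3761 were shared with siAATF, and 1966 of those lay away from promoters.

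U251 cells, an established human glioblastoma line, received a control siRNA (siControl) or an siRNA against AATF (siAATF), and chromatin was immunoprecipitated with an NRF-1 antibody by ChIPmentation, in which a transposase adds the sequencing adapters to the precipitated chromatin. The design text of the series names U138 as the line, whereas both sample labels name U251. There was 1 peak list per condition, each label carried replicate number 1, and the methods describe duplicates without saying whether they were pooled, so no test between the conditions was possible and no spread between replicates could be given. The lists hold no read totals and no expression values, so depth was unknown and neither the AATF level nor the identity of the line could be checked from them.

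NRF-1 (nuclear respiratory factor 1) is a transcription factor that binds, as a dimer, a GC-rich palindrome found close to the start of many housekeeping genes. It is best known for genes whose products build the respiratory chain and the mitochondrial ribosome. AATF is a transcriptional cofactor that was lowered here to compare NRF-1 occupancy with and without it.

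The core of the NRF-1 motif was written as the letters GCGCA followed directly by their reverse complement, and it was searched on both strands in the 300 bp centred on each peak. Only 13 of the 1795 windows (0.724%, 95% interval 0.386 to 1.24) held the core with at most 1 mismatch, and 1 window held it exactly. That window belonged to the promoter peak of TRO, which encodes trophinin, a cell adhesion protein. The sequences below show the TRO core and 5 of the near matches, each with the bases on either side, read 5′ to 3′ along the strand of the gene on hg19. The core is in capitals. They lie at chrX:54948308-54948337 (plus strand) for TRO, chr22:20004443-20004472 (minus) for ARVCF, chr16:46655196-46655225 (minus) for SHCBP1, chr1:45478650-45478679 (plus) for UROD, chr9:138593687-138593716 (plus) for KCNT1 and chr10:104180855-104180884 (plus) for FBXL15.
TRO: gtttaccaagGCGCATGCGCgcggagggca
ARVCF: cgtcatctccGCGCATCCGCccaatcggcg
SHCBP1: tggcgccggaGCGCATGGGCtgggcggtgg
UROD: ctcccgtttgGTGCATGCGCcaggcaggcc
KCNT1: ggtccgagcaGCGCATGTGCcctgctgccc
FBXL15: aaatcttactGCGCACGCGCaatagacagc

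Counted from 1 at the 5′ end of the core, with the base of the core first and that of the site last, the differences were G7C in ARVCF, C8G in SHCBP1, C2T in UROD, C8T in KCNT1 and T6C in FBXL15. The peaks with a near match were chosen for display after their values had been seen. Peaks with such a core lay across much of the range of siControl values. The TRO peak had a −log10 q of 3.63 in siControl and 2.86 in siAATF. ARVCF, a catenin family gene, had 4.81 and 7.93, and UROD, an enzyme of heme synthesis, had 3.63 and 1.99. The peak of FBXL15, a ubiquitin ligase subunit, had 1.73 and 2.33, and its siControl fold enrichment of 1.8 was the lowest of all 1795.

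The core was far rarer than among strong shared promoter peaks as a whole. Among the 9444 shared promoter peaks with a −log10 q of at least 5, 2052 windows (21.7%, 20.9 to 22.6) held the core at 1 mismatch or less, and 332 (3.52%) held it exactly. The 2053 of those peaks that lay between 5 and 10, next to the threshold, were like the weak ones, with 18 windows (0.877%, 0.520 to 1.38). The weak siControl-only promoter peaks had 13 of 444 (2.93%, 1.57 to 4.95), and the weak shared peaks away from promoters had 48 of 1966 (2.44%, 1.81 to 3.22). At 19471 canonical starts of coding genes the share was 9.64%. At the 7416 starts without a siControl promoter peak it was 1.98% (1.68 to 2.33), above the interval of the weak shared peaks. Windows centred on the nearest coding start instead of the peak midpoint held the core in 9 of 1795 cases (0.501%, 0.230 to 0.95).

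A control palindrome with the same bases, CGGCA followed by its reverse complement, did not follow this order. At up to 1 mismatch it occurred in 25 weak shared promoter windows (1.39%, 0.903 to 2.05), in 1.36% of the 5 to 10 group and in 1.63% (1.38 to 1.91) of strong shared promoter windows. At all coding starts its share was 1.14%. The plot of word shares by peak class shows the core beside this palindrome and beside words of other promoter factors.

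**Figure D1:**
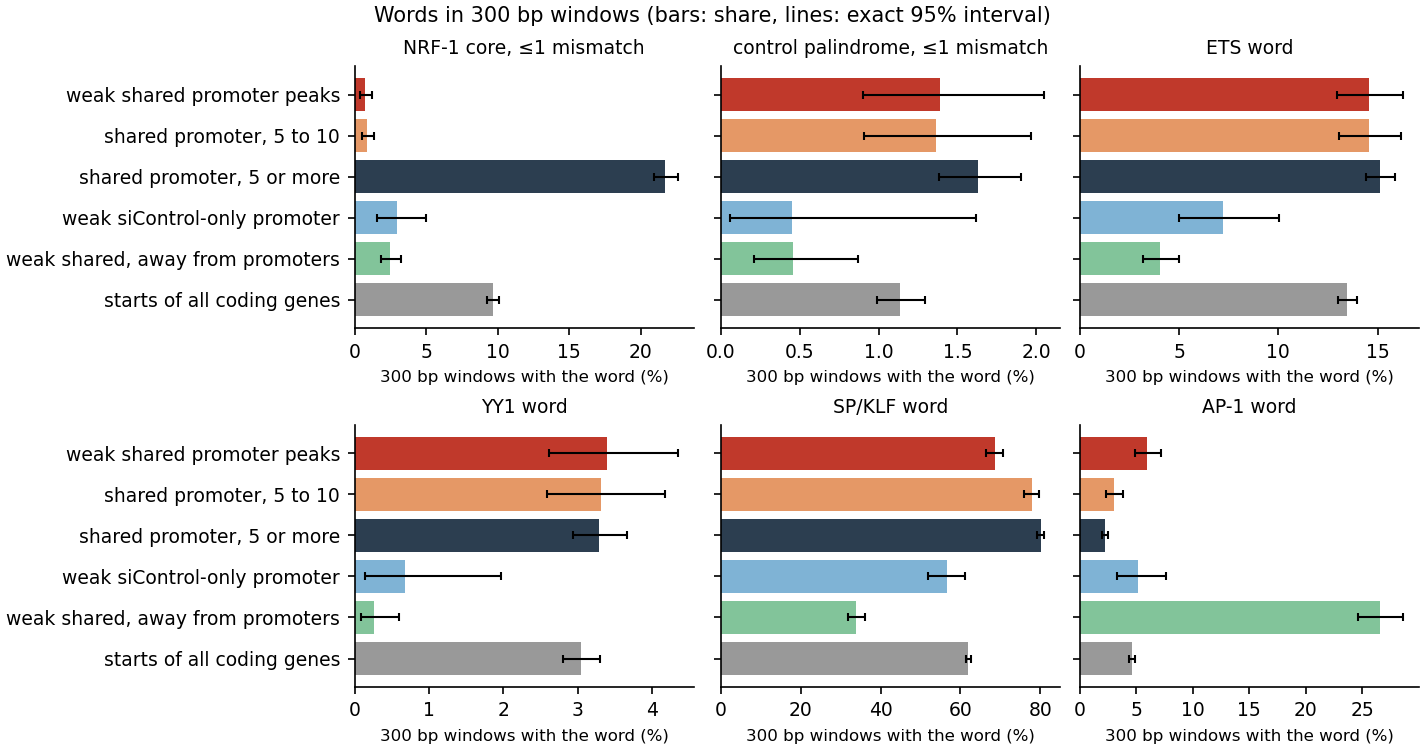
Share of 300 bp windows (%, horizontal axes, which differ between panels) that held each word, with bars for the share and lines for the exact 95% interval, in 5 classes of siControl peaks and at canonical starts of coding genes. The NRF-1 core was in 0.724% of weak shared promoter windows and 21.7% of strong ones (5 or more, which includes the 5 to 10 class), whereas the ETS and YY1 words had like shares in the promoter classes that both lists hold.

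The ETS and YY1 words were as frequent as in strong promoters. The ETS word CCGGAAG, bound by factors such as GABPA that also serve nuclear genes for mitochondrial proteins, was in 261 windows (14.5%, 12.9 to 16.3), against 15.1% of strong shared promoter windows and 13.5% at all coding starts. The YY1 word AAGATGGCG was in 61 windows (3.40%, 2.61 to 4.34), against 3.28% and 3.05%. The intervals of the weak shared peaks covered the shares of the strong ones for both words. The weak siControl-only promoter peaks had fewer, 32 of 444 for ETS (7.21%, 4.98 to 10.02) and 3 of 444 for YY1 (0.676%). The GC box GGGCGG, bound by SP and KLF factors, was in 1231 windows (68.6%, 66.4 to 70.7), between the strong shared peaks at 80.1% and the siControl-only ones at 56.5%.

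The AP-1 word was more frequent than in strong promoters. The AP-1 word TGANTCA, bound by FOS and JUN factors, was in 107 weak shared promoter windows (5.96%, 4.91 to 7.16), in 62 of the 5 to 10 group (3.02%, 2.32 to 3.85) and in 210 of the strong peaks (2.22%, 1.94 to 2.54). At all coding starts its share was 4.61%, and at those without a siControl promoter peak 7.40%. The weak shared peaks away from promoters held it in 522 windows (26.6%). The TATA box TATAAA was in 50 weak shared promoter windows (2.79%, 2.07 to 3.66) and in 1.8% (1.54 to 2.09) of strong ones, intervals that overlapped. At all coding starts its share was 8.02%. The CCAAT box was in 24.3% and 24.6% of weak and strong shared promoter windows and in 32.7% at coding starts. A match names letters only and was not taken as a bound site, and none of the words printed here contains another. GC content differed between the classes, and its part in these shares was not tested.

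Most of these windows were rich in CpG by their base composition. No annotation of CpG islands was used. Median GC content was 67.3% (quartiles 61.7 to 73), against 70.7% in the 5 to 10 group and 71.7% in strong shared promoter peaks. The median ratio of observed to expected CpG was 0.810, against 0.860 and 0.9. A window with at least 50% GC and a ratio of at least 0.6 was called CpG-rich. This held for 1471 weak shared promoter windows (81.9%, 80.1 to 83.7), 95.3% of strong ones, 65.8% (61.1 to 70.2) of weak siControl-only promoter windows and 24.6% of weak shared windows away from promoters. At all coding starts it held for 68.6%, and at those without a siControl promoter peak for 32.1%. The cumulative plot of base composition shows the weak shared promoter peaks between the strong shared peaks and the siControl-only ones for CpG.

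**Figure D2:**
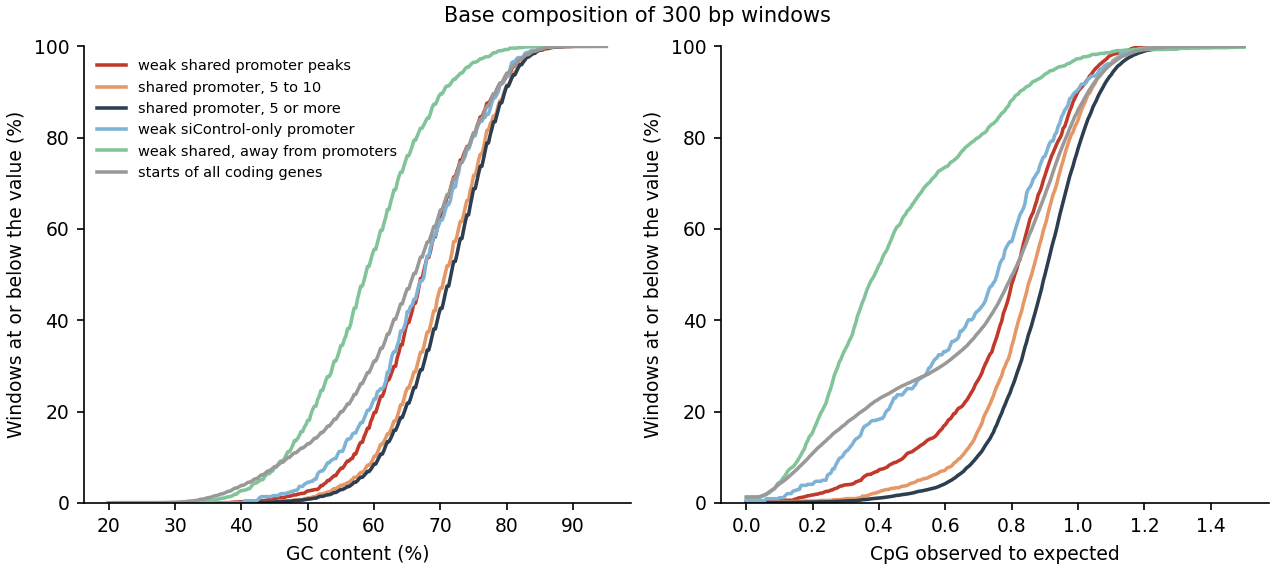
Cumulative share of 300 bp windows (%, vertical axes) by GC content (%, left) and by the ratio of observed to expected CpG (right), with 1 line per class of siControl peaks and 1 for canonical starts of coding genes. Weak shared promoter peaks had a median GC content of 67.3% and a median CpG ratio of 0.810, while weak shared peaks away from promoters had 58.7% and 0.388.

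The rule asked only that a peak touch the promoter window, yet 1426 of the 1795 peaks (79.4%, 77.5 to 81.3) covered a coding start itself. The share was 91.6% in the 5 to 10 group, 95.3% (94.9 to 95.7) in strong shared promoter peaks and 48.6% (43.9 to 53.4) in weak siControl-only ones. These classes also differed in width, with medians of 533, 720, 882 and 312 bp in that order, and the part of width in these shares was not tested. Midpoints lay a median of 102 bp from the nearest coding start (quartiles 35 to 231), and 888 (49.5%) lay within 100 bp of it, against 60.5% of strong peaks. They lay downstream of the start in 1022 cases (56.9%), against 56.6% of the 5 to 10 group, 51.1% of strong peaks and 63.5% of weak siControl-only ones. By annotation, 679 midpoints (37.8%) fell in UTR exons, 223 (12.4%) in coding exons, 601 (33.5%) in introns and 292 (16.3%) outside coding genes. Of the 1795 peaks, 202 (11.3%) had coding starts on both strands within the promoter window, near the 12.4% of strong peaks.

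**Figure D3:**
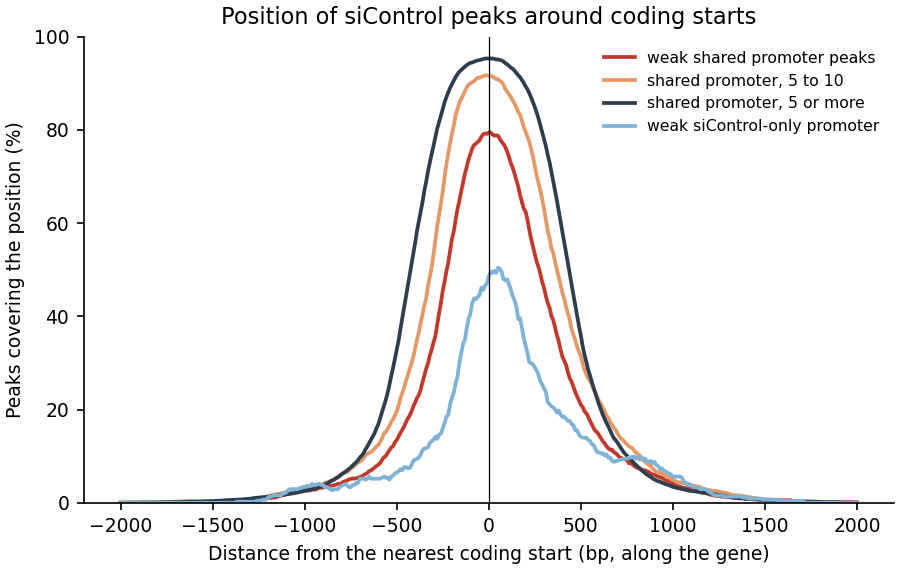
Share of siControl peaks (%, vertical axis) that covered each position around the nearest coding start (bp, horizontal axis, read along the gene), with 1 line per class. Coverage by weak shared promoter peaks was highest at the start, at 79.4%, and was 13.5% at 500 bp upstream and 21.1% at 500 bp downstream, a lean to the downstream side.

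Peaks that covered a start and peaks that only touched the promoter window differed in sequence. The ETS word was in 238 of the 1426 windows of covering peaks (16.7%, 14.8 to 18.7) and in 23 of the 369 others (6.23%, 3.99 to 9.21). The AP-1 word was in 67 covering peaks (4.70%, 3.66 to 5.93) and in 40 of the others (10.8%, 7.86 to 14.5). Of the peaks that covered no start, 67 (18.2%) had a strong siControl peak within 1 kb, against 48 (3.37%) of the covering ones. The covering peaks were also wider, with a median of 589 bp against 379 bp. Over all 1795 peaks, 115 (6.41%, 5.32 to 7.64) had such a strong neighbour, against 6.98% of weak siControl-only promoter peaks, 3.85% of the 5 to 10 group and 2.28% of strong promoter peaks, and the median gap to the nearest strong peak was 34304 bp.

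In siControl, the values that chose the peaks ran from 1.05 to 4.99 on the −log10 q scale, with a median of 3.46 and quartiles of 2.62 and 4.24. Fold enrichment over the local background ran from 1.8 to 5.45 with a median of 4.19, and the percentile rank by fold within the siControl list ran from 0.05 to 44.5 with a median of 21.6. The lowest −log10 q belonged to INO80B (1.05), a subunit of a chromatin remodelling complex, ZNF462 (1.11), a zinc finger gene, and ATOH8 (1.18), a bHLH transcription factor gene. Just inside the threshold stood RBPMS, GPATCH2L and MOSMO, each at 4.99. Just outside stood COL27A1, RGS10 and YPEL5, each less than 0.01 above 5, with 5.95, 6.65 and 5.66 in siAATF. Of the 3 just inside, MOSMO had 6.61 in siAATF, while RBPMS had 3.35 and GPATCH2L had 3.07, so peaks next to the threshold lay on both sides of 5 in the other list.

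In siAATF, the overlapping peak with the highest −log10 q was taken as the counterpart. The counterparts had a median −log10 q of 3.70, quartiles of 2.69 and 4.99, and a range of 1.06 to 37. A value of at least 5 was reached by 443 of them (24.7%, 22.7 to 26.7), against 76.8% of all 15838 shared siControl peaks on these chromosomes and 80.0% of the 5 to 10 group. The peaks were chosen by a low siControl value, so these shares are a description. The median width was 529 bp, and 882 counterparts (49.1%) were wider than the siControl peak. In 1731 cases (96.4%) each peak overlapped exactly 1 peak of the other list. Across all 1795 peaks Spearman's rho between the lists was 0.379 for −log10 q, 0.523 for fold enrichment and 0.589 for width, over a range of siControl values cut short by the rule.

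The share that reached 5 in siAATF went with the siControl value. It was 21 of 167 peaks (12.6%) under 2, 54 of 475 (11.4%, 8.66 to 14.6) from 2 to 3, 123 of 553 (22.2%) from 3 to 4 and 245 of 600 (40.8%, 36.9 to 44.9) from 4 to 5. The share of peaks that covered a coding start went from 63.5% to 75.4%, 81.6% and 85.2% (82.1 to 87.9) over the same steps, and median GC content from 65.0% to 66.3%, 67.3% and 68.7%. The core at up to 1 mismatch was found in 1, 3, 4 and 5 windows, a share below 1% in every step. The 443 peaks that reached 5 in siAATF held it in 2 windows (0.451%).

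**Figure D4:**
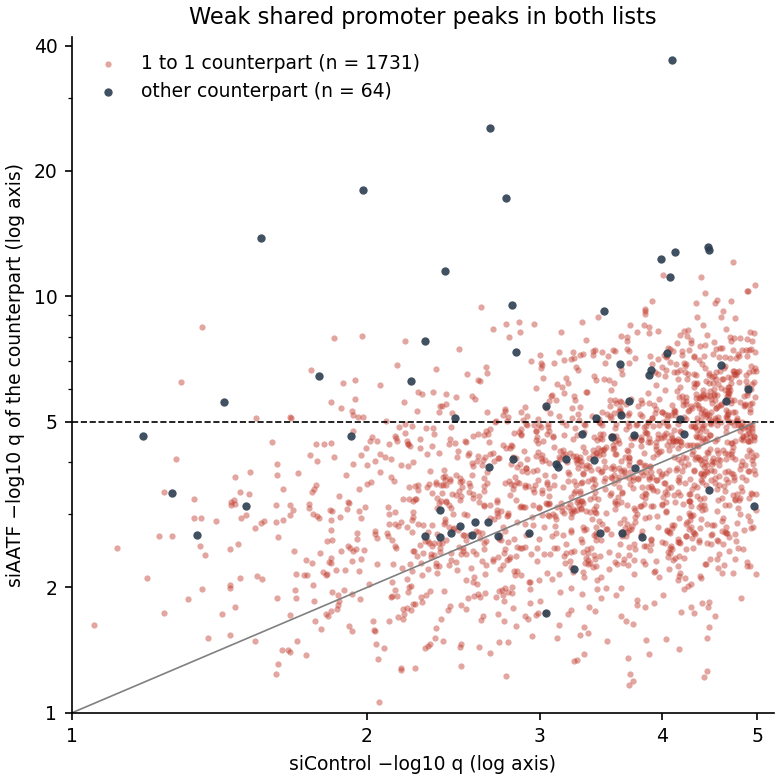
The −log10 q of each weak shared promoter peak in siControl (horizontal log axis) and of its counterpart in siAATF (vertical log axis), 1 point per peak, with red points for peaks that overlapped 1 to 1 (n = 1731) and dark points for the other 64. The dashed line marks 5 and the grey line equal values. Of 1795 points, 443 lie at or above the dashed line, and the points above 12.1 are all dark.

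Percentile ranks by fold enrichment were taken within each list, from 0 for the weakest peak to 100 for the strongest, because the libraries' depths were unknown. The rank in siAATF was higher for 1117 of the 1795 peaks (62.2%, 59.9 to 64.5), against 51.8% of all shared siControl peaks, and the median change was 3.37 points (quartiles −3.45 to 12.7). A rank more than 20 points higher was seen for 237 (13.2%, 11.7 to 14.9), against 5.75%, and one more than 20 points lower for 45 (2.51%, 1.83 to 3.34), against 4.18%. The same rule applied from the siAATF side gave the same lean in the opposite direction. Of 1804 shared promoter peaks under 5 in siAATF, 1132 (62.7%, 60.5 to 65.0) ranked higher in siControl, by a median of 2.97 points, and 456 (25.3%, 23.3 to 27.3) reached 5 there. The higher ranks thus went with the list that was not used for the choice, in both directions. Of the 1795 peaks, 1353 (75.4%) overlapped one that was also weak in siAATF by this rule. Weak shared peaks away from promoters ranked higher in siAATF in 62.9% of cases.

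The highest siAATF values came from merged peaks. PASK, which encodes a nutrient-sensing kinase, had a −log10 q of 4.09 in siControl and 37 in siAATF. GCNT1, a glycosyltransferase gene, had 2.67 and 25.4, and NDRG1, a stress-responsive gene, had 1.98 and 18.0. RAB40C had 2.77 and 17.2, and TPD52L2 had 1.56 and 13.8. None of these 5 overlapped 1 to 1. Each siControl peak lay 427 to 532 bp from a strong siControl peak, and each siAATF counterpart was a single peak of 1442 to 1904 bp. The 64 peaks without a 1 to 1 counterpart had a median width of 432 bp in siControl and 1399 bp in siAATF, 27 of them (42.2%) had a strong siControl peak within 1 kb, and 31 (48.4%) reached 5 in siAATF. Among 1 to 1 pairs the highest siAATF value was 12.1, and 412 of 1731 reached 5.

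Among 1 to 1 pairs named for a large difference in rank, ZNF223, a zinc finger gene of chromosome 19, had a −log10 q of 1.36 in siControl and 8.46 in siAATF, and its rank was 57.5 points higher in siAATF. KAT5, which encodes the TIP60 acetyltransferase, had 1.85 and 7.93, with a rank 52.0 points higher. IL1R1, the interleukin-1 receptor gene, had 2.61 and 9.45, with a rank 51.5 points higher. TERT, the gene of the telomerase catalytic subunit, had 1.97 and 8.04, with a rank 51.3 points higher, and its siControl peak of 279 bp had its midpoint 3 bp from the start. In the other direction, MUL1, a mitochondrial ubiquitin ligase gene, had 4.44 and 1.26, and its rank change was −35.4 points. BTN2A2, a butyrophilin gene, had 4.41 and 1.22 (−32.7 points), SLC26A4, an anion exchanger gene, had 4.16 and 1.43 (−31.6 points), MRPS18A, of the mitochondrial ribosome, had 4.46 and 1.79 (−30.8 points) and SV2A, a synaptic vesicle gene, had 4.81 and 1.89 (−30.6 points). These 9 peaks were picked for their difference, which had no replicate check.

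At the level of genes, 1940 of 19748 coding genes had a weak shared peak at a start. For 1566 of them (7.93% of coding genes, 7.56 to 8.32) it was the strongest siControl promoter peak. A further 364 also had a promoter peak of at least 5, within 1 kb of the weak one for 107 genes and further away for 257. Over all coding genes, the strongest promoter peak was at least 5 for 10183 (51.6%), and 7658 (38.8%) had no siControl promoter peak. Among the 12090 genes with any promoter peak, a weak shared peak was the strongest for 13.0% (12.4 to 13.6), which is the share to set beside the gene lists.

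Oxidative phosphorylation (OXPHOS) subunit genes, the best known NRF-1 targets, were mostly strong, with 60 of 78 at 5 or more and 4 without a promoter peak. For the remaining 14 (17.9%, 10.2 to 28.3) the strongest peak was weak and shared. The peaks of NDUFA1, NDUFA13, NDUFB1, NDUFC2, NDUFS1, NDUFS3, UQCRQ and COX4I1 also had a start of another coding gene in the promoter window. For NDUFC2 the only other annotated gene was NDUFC2-KCTD14, a combined locus that includes NDUFC2 by name. Over all 1795 peaks, 12.8% had more than 1 annotated coding gene in the promoter window. By complex the 14 genes were 9 of 37 genes of complex I, 0 of 4 of complex II, 1 of 9 of complex III, 3 of 11 of complex IV and 1 of 17 of complex V. Their siControl −log10 q ran from 1.87 to 3.97 with a median of 3.20, and the siAATF values from 1.86 to 6.34 with a median of 3.84. Of the 14 peaks, 10 ranked higher in siAATF and 4 ranked lower, 4 reached 5 in siAATF, and 12 covered a start, counts near the shares of 62.2%, 24.7% and 79.4% over all 1795 weak shared promoter peaks. The median rank change was 8.26 points (−16.3 to 27.9), against 3.37 over all 1795 peaks. Of the 14 peaks, 3 were more than 20 points higher and 0 more than 20 points lower, against 13.2% and 2.51% over all 1795.

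The complex I genes, which encode the NADH dehydrogenase, spanned the whole range. NDUFA10 (chr2:240964613-240965239) had a −log10 q of 3.49 in siControl and 6.34 in siAATF. NDUFS3 (chr11:47600067-47601019), a core subunit, had 1.98 and 5.14. Both had a rank more than 20 points higher in siAATF. NDUFC2 had 3.97 and 3.8, NDUFB1 2.72 and 3.21, NDUFA13 2.63 and 3.66, and NDUFS1, which holds iron-sulfur clusters, 2.11 and 1.89. NDUFA1 (chrX:119005592-119005874) had 3.89 and 2.46, the lowest rank change of the 14. NDUFS5 had 1.87 and 1.86, and its peak lay 687 bp downstream of the start without covering it.

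Of the other complexes, UQCRQ of complex III (chr5:132201881-132202967) had a −log10 q of 3.69 in siControl and 4.96 in siAATF. For complex IV, cytochrome c oxidase, COX8A (chr11:63741991-63742579) had 3.93 and 5.48, COX7A2 (chr6:75953348-75953861) had 3.84 and 2.51, and COX4I1 (chr16:85832826-85833923) had 2.91 and 3.88. ATP5F1B, which encodes the catalytic beta subunit of ATP synthase (chr12:57039010-57039953), had 3.32 and 3.93. Of these 5 genes, COX7A2 alone had a lower value in siAATF, and only COX8A passed 5.

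None of the 14 OXPHOS windows held the NRF-1 core at up to 1 mismatch, as was usual at a share of 0.724% over all 1795 windows. The stretches directly before the canonical start of COX8A (chr11:63741942-63742091, plus strand), NDUFA1 (chrX:119005697-119005794, plus) and ATP5F1B (chr12:57039769-57039918, minus) are shown on hg19, 5′ to 3′ along the gene, to show the other promoter words they carry. The NDUFA1 stretch lay inside the 300 bp window of its peak. The COX8A and ATP5F1B stretches lay outside theirs, and the COX8A CCAAT box lay upstream of its siControl peak. Capitals mark the ETS word, the GC box and the CCAAT box on either strand. COX8A had 1 CCAAT box and 1 ETS word, NDUFA1 had 1 ETS word and 2 GC boxes, and ATP5F1B had 2 CCAAT boxes. The best match to the core had 4, 3 and 3 mismatches in these stretches.
COX8A: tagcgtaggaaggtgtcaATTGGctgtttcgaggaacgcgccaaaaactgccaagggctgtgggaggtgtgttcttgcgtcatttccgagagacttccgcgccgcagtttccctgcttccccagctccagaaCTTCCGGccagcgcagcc
NDUFA1: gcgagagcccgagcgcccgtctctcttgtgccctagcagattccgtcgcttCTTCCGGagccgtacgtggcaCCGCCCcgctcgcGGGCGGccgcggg
ATP5F1B: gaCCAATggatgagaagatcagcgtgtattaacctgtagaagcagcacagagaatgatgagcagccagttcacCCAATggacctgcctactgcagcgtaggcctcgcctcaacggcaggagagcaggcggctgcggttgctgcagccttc

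Both sets of ribosomal protein genes resembled the OXPHOS genes. Of 79 mitochondrial ribosomal protein genes, 60 were strong and 12 (15.2%, 8.10 to 25.03) had a weak shared peak as their strongest. MRPL50 had 4.21 in siControl and 6.90 in siAATF, MRPL9 had 4.16 and 2.57, and MRPS31 had 4.06 and 4.28. Of 87 cytosolic ribosomal protein genes, 59 were strong and 14 (16.1%, 9.09 to 25.5) were weak and shared. RPL24 had 4.07 and 7.45, whereas RPL21 had 4.80 and 3.86 and RPL9 had 4.65 and 4.71. Of the genes with a promoter peak, the weak shared share was 18.9% (10.7 to 29.7) for OXPHOS, 16.4% (8.79 to 27.0) for mitochondrial and 18.4% (10.5 to 29.0) for cytosolic ribosomal proteins. All 3 intervals covered the 13.0% of all coding genes.

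Proteasome, DNA replication and kinesin genes lay at 12.9%, 10.3% and 12.5% of the genes with a promoter peak, near the 13.0% of all coding genes. Proteasome subunits had 4 of 39, among them PSMD4 at 1.93 in siControl and 5.30 in siAATF and PSMC3 at 4.62 and 6.32. DNA replication genes had 4 of 40, with MCM10 at 4.60 and 5.51 and ORC1, a subunit of the origin recognition complex, at 4.25 and 2.01. Kinesins had 4 of 39, with KIF5A at 4.95 and 3.96 and KIF15 at 4.55 and 4.91. Of 17 glycolysis genes 15 were strong and 1, GAPDH, had a weak shared peak, at 4.60 and 2.16, centred at −1005 bp from the nearest start and 429 bp from a strong peak.

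Of 64 replication-dependent histone genes, 26 were strong and 14 (21.9%, 12.5 to 34.0) were weak and shared, which was 34.1% (20.1 to 50.6) of those with a promoter peak. Their siAATF values had a median of 3.06, and 0 of 14 reached 5. Over all 1566 coding genes whose strongest peak was weak and shared, the median was 3.74 and 389 reached 5. H3C7 and H2BC9 shared 1 peak, counted for each gene, at 4.12 in siControl and 2.36 in siAATF, and H4C5 had 3.51 and 1.49. Of 246 zinc finger genes on chromosome 19, 135 were strong and 43 (17.5%, 12.9 to 22.8) were weak and shared, or 23.5% (17.6 to 30.3) of those with a promoter peak. In siAATF, 18 of the 43 reached 5, beside 389 of 1566 over all coding genes, a difference that was not tested. ZNF230 had 4.86 and 5.53, ZNF112 had 4.74 and 6.49, and ZNF431 had 4.85 and 2.75. Histone and zinc finger genes have close copies, so the placement of reads among them is less certain. Of 39 HOX genes 6 were weak and shared, or 28.6% (11.3 to 52.2) of those with a promoter peak. The 4 with the highest siControl values covered no start, as for HOXB8 at 4.37 and 5.70.

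Tissue-restricted families mostly had no peak. Olfactory receptors had 1 weak shared peak in 390 genes, at OR1F1, and 389 had no siControl promoter peak. Protocadherins had 2 of 64, potassium channels 4 of 94, glutamate and GABA receptor subunits 2 of 35 and collagens 4 of 44. Of the few genes with a promoter peak in these families, that was 2 of 7, 4 of 36, 2 of 10 and 4 of 19, and the intervals of all 4 shares covered 13.0%. In these families PCDHGB7 had 4.63 in siControl and 4.21 in siAATF, KCNIP1 had 4.15 and 2.61, GRIA4 had 3.72 and 4.57 and COL21A1 had 3.43 and 1.98. Among FOX transcription factor genes, 4 of 45 were weak and shared, or 4 of the 27 with a promoter peak. FOXJ2 had 4.70 and 7.83 and FOXM1, a regulator of mitotic genes, had 2.10 and 2.85. Solute carriers had 28 of 337 (8.31%), near the 7.93% of all coding genes. Of those with a promoter peak that was 15.1% (10.3 to 21.1), an interval that covered 13.0%. Tripartite motif genes had 2 of 73, or 2 of the 33 with a promoter peak, and TRIM5, a retroviral restriction factor, had 2.48 and 7.45. No list was tested against the rest.

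**Figure D5:**
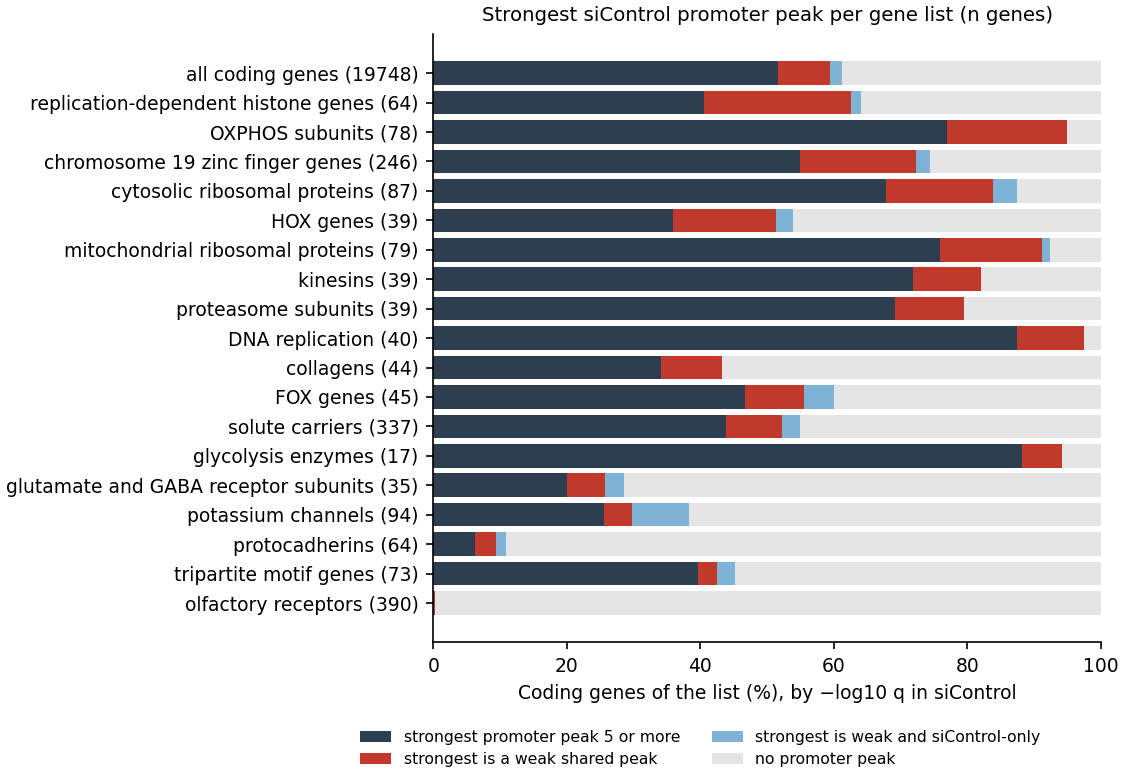
Share of the coding genes of each list (%, horizontal axis) by the strongest siControl promoter peak, with stacked bars for a peak of 5 or more, a weak shared peak, a weak siControl-only peak and no promoter peak, and the number of genes in brackets. Weak shared peaks (red) were the strongest peak for 21.9% of histone genes, 17.9% of OXPHOS genes and 7.93% of all coding genes. Of the genes with a promoter peak, these were 34.1% (20.1 to 50.6), 18.9% (10.7 to 29.7) and 13.0%, and the OXPHOS interval covered the 13.0%.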

How the data were processed

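Peak lists from 2 anti-NRF-1 ChIPmentation samples of U251 cells, 1 per condition, were analysed. Per the methods of the study, Bowtie2 placed the reads on hg19 and MACS2 made the peak calls, inside an ATAC-seq pipeline at default settings, and no input or IgG library was named. Read handling made for transposase cut sites could move peak edges in both lists alike. The authors deposited peak positions in bp, fold enrichment over the local background (a ratio), the −log10 p and −log10 q, and a display score derived from the −log10 q. The fold, −log10 p and −log10 q are MACS2 values for the whole broad region. The −log10 p and the score were not used. Depth was unknown, since the lists give no read totals.

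Groups followed the sample labels. Overlaps, percentile ranks, shares and words were computed with Python 3.11.15, numpy 2.4.6, pandas 2.3.3, scipy 1.17.1 and pysam 0.24.0, and tested on simulated data. Coding starts and exons came from GENCODE release 44 lifted to GRCh37, and sequence from the GRCh37 primary assembly. Words were searched on both strands in 300 bp windows. Exact Clopper-Pearson 95% intervals cover counting error only, since neighbouring peaks and genes are not independent. The peaks, the 18 gene lists and the named genes were chosen with earlier results of these data known. Named genes were the extremes of siControl −log10 q, of siAATF −log10 q and of rank change, peaks next to the threshold, windows with the exact core, all OXPHOS genes whose strongest promoter peak was weak and shared, and up to 4 such genes of each other list in order of siControl −log10 q. Some genes that this rule selects are not reported here. Outside the gene lists, a peak was named for the coding gene with the nearest start. In the gene lists, a peak counted for every coding gene with a start in its promoter window. Alternatives covered the −log10 q threshold, reciprocal overlap, promoter width, canonical starts, the rule applied from the siAATF side, 1 to 1 counterparts, ranking by −log10 q, the searched window and the exact core.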

Additional observations from a re-analysis of the deposited data

How the results depend on the processing

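Over 8 results, 37 alternative values were computed under 11 settings, of which 25 stayed close to the reported value, 12 moved further and 0 reversed. For the rule applied from the siAATF side, the lists changed roles in this count. Its share of 62.7% ranked higher in siControl, the opposite direction, and was counted as close. The 0 therefore does not show that the lean to siAATF held. With the threshold at a −log10 q under 3, 642 peaks remained, of which 11.7% reached 5 in siAATF and 73.5% ranked higher in siAATF. Their median siAATF −log10 q was 3.002, their median GC content was 66%, and they were the strongest promoter peak of 2.65% of coding genes. A reciprocal overlap of at least 50% left 1480 peaks, with a median siAATF −log10 q of 3.82, and canonical starts alone left 1508 peaks. Both numbers of peaks were below 1795 but were counted as close to it. The share that covered a start was 83.9% with promoters of 500 bp and 75.4% with 2 kb, since the same 1426 covering peaks stood among fewer or more in all. Median GC content was 66.8% over whole peaks and 66.2% in windows of 500 bp, and the exact core alone gave 0.0557%.

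The rule applied from the siAATF side gave 1804 peaks, of which 0.887% held the core at up to 1 mismatch and 81.0% covered a start, and 1 to 1 counterparts alone gave 23.8% at 5 or more. No paired analysis was possible because each condition had 1 list. Without replicates or read totals, no difference between siControl and siAATF at a single peak could be told from the spread of repeat experiments, and a peak near the calling limit can be missed in a shallower library.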

Other observations

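Of 391 weak promoter peaks called in siAATF alone, 2 windows (0.512%, 95% interval 0.0620 to 1.84) held the NRF-1 core at up to 1 mismatch, against 13 of 444 (2.93%, 1.57 to 4.95) in siControl alone. The AP-1 word was in 45 of the siAATF-only windows (11.5%, 8.52 to 15.1) and in 23 of the siControl-only ones (5.18%). The ETS word was in 43 (11.0%) and 32 (7.21%). The difference between the 2 lists was not tested.

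By chromosome, 149 of the 1795 weak shared promoter peaks (8.30%) lay on chromosome 19, against 7.24% of strong shared promoter peaks, 55 (3.06%) on chromosome X, against 3.14%, and 4 (0.223%) on chromosome 21, against 0.995%. Wide weak peaks were the minority, with 191 of at least 1000 bp and 267 under 300 bp. Of the wide ones 93.2% covered a coding start and 35.1% reached a −log10 q of 5 in siAATF, and of the narrow ones 57.7% and 13.9%.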
